A study of Homo sapiens with 4 samples.

Results

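NFE2L2, KEAP1 and 8 classical target genes of the transcription factor NRF2 were followed in Huh7 and HepG2 cells with and without knockdown of COP1. The members were fixed by name, as the factor (NFE2L2), its inhibitor (KEAP1) and the targets NQO1, GCLC, GCLM, TXNRD1, SRXN1, HMOX1, OSGIN1 and TXN. The rule uses no measured value, but the choice was made with earlier results of these data known. All 10 were found among the 46427 genes of the tables through their NCBI Gene numbers. Huh7 and HepG2 are established lines labelled as hepatocellular carcinoma. Cells of each line received either NC-siRNA, the negative control (genotype WT in the labels), or COP1-siRNA (genotype COP1 Knockdown), both at 20 nM in a 5 h transfection, and were harvested after 48 h. Each of these 4 conditions has 1 library of polyadenylated RNA, and all 4 carry the same batch label. No difference below therefore has a replicate check or a p-value, and the only yardsticks are fixed fold sizes and the spread of all other genes.

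NRF2, the protein of NFE2L2, drives the cell's main defence against oxidants and electrophiles. In unstressed cells KEAP1 holds it and hands it to a CUL3 ubiquitin ligase for destruction. When the cysteines of KEAP1 are modified, NRF2 escapes, pairs with a small MAF protein and binds antioxidant response elements at genes for glutathione synthesis, the thioredoxin system, quinone reduction and heme breakdown. Because its control lies largely in protein turnover, the mRNA of the targets is often read as a measure of NRF2 activity. COP1 is itself an E3 ubiquitin ligase. The pathway is recurrently switched on by mutation in liver cancer, and the liver relies on it for handling drugs and peroxides.

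The antioxidant response element is where NRF2 acts, so the starts of the members were searched for its core, TGACNNNGC or TGAGNNNGC, on either strand. RefSeq windows of GRCh38.p14, from 250 bases before to 50 bases after an annotated start, were at hand for 9 of the 10 members, 12 windows in all. Of these windows 7 held a core (58.3%), against 29.1% of all 35116 windows. By gene, 6 of 9 members held a core in at least 1 window, against 33.7% of 27305 genes. The windows below are those of the 4 targets that held a core and were at least 2-fold higher in Huh7 than in HepG2 with NC-siRNA, and capitals mark the bases of each core. The sequences run along the strand of the gene, so a core on the opposite strand shows there as its reverse complement.

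NQO1 (chr16:69726511-69726810, minus strand): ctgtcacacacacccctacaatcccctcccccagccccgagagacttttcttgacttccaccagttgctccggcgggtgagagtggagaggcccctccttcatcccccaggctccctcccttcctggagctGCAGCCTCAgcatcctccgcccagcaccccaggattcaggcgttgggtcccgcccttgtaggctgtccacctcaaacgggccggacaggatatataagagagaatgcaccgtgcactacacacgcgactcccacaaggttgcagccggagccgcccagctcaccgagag

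GCLM (chr1:93909381-93909680, minus strand): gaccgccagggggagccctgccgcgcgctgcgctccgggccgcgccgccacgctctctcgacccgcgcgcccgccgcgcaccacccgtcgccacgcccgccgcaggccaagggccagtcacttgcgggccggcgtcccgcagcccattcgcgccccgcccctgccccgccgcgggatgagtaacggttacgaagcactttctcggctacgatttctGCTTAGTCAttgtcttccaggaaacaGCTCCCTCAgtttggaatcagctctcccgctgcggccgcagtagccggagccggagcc

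TXNRD1 (chr12:104286782-104287081, plus strand, the inner of 2 annotated starts): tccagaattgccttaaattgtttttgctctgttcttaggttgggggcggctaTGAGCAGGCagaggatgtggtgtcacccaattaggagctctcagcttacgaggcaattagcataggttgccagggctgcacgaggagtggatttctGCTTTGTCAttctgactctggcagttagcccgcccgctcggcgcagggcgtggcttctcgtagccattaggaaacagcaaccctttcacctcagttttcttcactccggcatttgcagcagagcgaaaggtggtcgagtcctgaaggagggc

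OSGIN1 (chr16:83952990-83953289, plus strand): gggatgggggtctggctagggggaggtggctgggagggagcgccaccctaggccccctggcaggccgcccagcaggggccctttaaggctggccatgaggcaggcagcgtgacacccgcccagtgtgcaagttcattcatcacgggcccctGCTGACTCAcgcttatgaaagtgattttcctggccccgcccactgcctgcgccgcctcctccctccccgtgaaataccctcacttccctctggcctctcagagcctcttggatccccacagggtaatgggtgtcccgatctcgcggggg

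The core of OSGIN1, TGAGTCAGC on the opposite strand, lay 99 to 91 bases before the start. In GCLM both cores were on the opposite strand, TGACTAAGC 34 to 26 bases before the start and TGAGGGAGC across the start itself. The inner TXNRD1 start had TGAGCAGGC on the strand of the gene 198 to 190 bases upstream and TGACAAAGC on the opposite strand 102 to 94 bases upstream. The outer TXNRD1 start, whose window is not printed, had TGACTTCGC and TGACGGAGC. NQO1 had TGAGGCTGC on the opposite strand, 119 to 111 bases upstream. NFE2L2 held 2 cores at its inner start and KEAP1 held 3, while none lay in the windows of GCLC, SRXN1 and TXN. These letter matches describe the windows and say nothing of binding.

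The COP1 mRNA bears on the siRNA labels, and no check of which line is which was made. COP1 stood at 19.7 TPM (transcripts per 1e+06, summed over each library) in the Huh7 control and at 6.18 TPM after its knockdown, 31.4% of the control. In HepG2 it was at 26.9 and 16.1 TPM, 59.9% of the control, a smaller loss of the target than in Huh7. The liver markers ALB, APOA1, APOB, TTR, SERPINA1, FGB, AFP and GPC3 were detected in all 4 libraries, the lowest being FGB in HepG2 at 6.97 TPM. PTPRC was listed at 0 throughout, VWF and CDH5 stayed under 0.12 TPM and PDGFRB under 0.19 TPM, and COL1A1 and COL1A2 reached 2.47 and 0.385 TPM at most. CD68 (58.2 and 56.4 TPM in Huh7, 15.6 and 17.3 TPM in HepG2) and PECAM1 (at most 7.36 TPM in Huh7 and 0.135 TPM in HepG2) also differed between the lines. The part of these marker differences, those of the liver markers included, in the differences below was not tested. Read counts are not given, and the ratio of coverage to FPKM, a relative measure of depth, was 1.13 times the control in Huh7 COP1-siRNA and 1.27 times in HepG2 COP1-siRNA. Mitochondrially encoded genes took 11.4% and 13.8% of the TPM in Huh7 and 7.81% and 8.10% in HepG2, with NC-siRNA and COP1-siRNA respectively.

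For 7 of the 10 members the difference between the cell lines with NC-siRNA was larger than either change with COP1-siRNA, the exceptions being KEAP1, GCLC and TXN. All genes together also spread more widely between the lines (5th to 95th percentile −2.18 to 2.52 with NC-siRNA) than between the siRNAs (−0.47 to 0.45 in Huh7). With NC-siRNA, NFE2L2, NQO1, TXNRD1, OSGIN1, SRXN1 and GCLM were 2.27 to 4.96 times higher in Huh7 than in HepG2 by TPM, while KEAP1, GCLC and TXN stood at nearly the same TPM. With COP1-siRNA the gap was smaller in each of these 6 genes. TXN was the most abundant member in every library, followed by TXNRD1 and NQO1. GCLC was the lowest in Huh7 and OSGIN1 in HepG2. NFE2L2 had rank 4 of 10 in both Huh7 libraries and rank 7 (NC-siRNA) or 6 (COP1-siRNA) in HepG2. With 1 library per condition it is unknown which neighbours in this order differ beyond their spread.

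**Figure D1:**
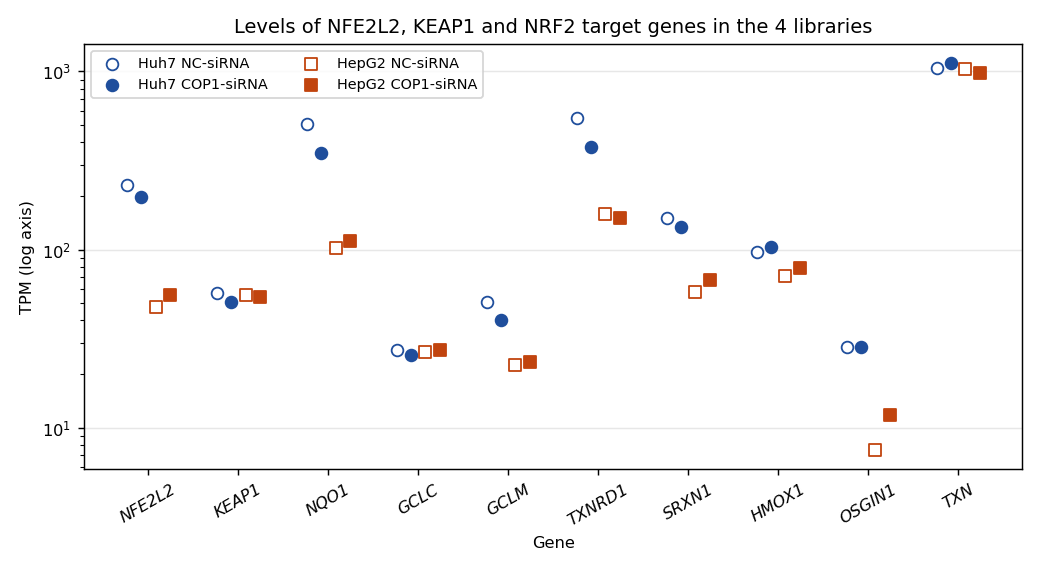
TPM of each gene (log axis) in the 4 libraries, with circles for Huh7, squares for HepG2, open symbols for NC-siRNA and filled symbols for COP1-siRNA, 1 library per symbol. NFE2L2, NQO1, TXNRD1, SRXN1, GCLM, OSGIN1 and, by less, HMOX1 lay higher in both Huh7 libraries than in both HepG2 libraries, whereas KEAP1, GCLC and TXN were close to level.

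NFE2L2 (gene 4780, chromosome 2, 177230303 to 177265131, minus strand of GRCh38) encodes NRF2 itself. It was at 229.8 TPM in Huh7 with NC-siRNA, 198 TPM in Huh7 with COP1-siRNA, 47.8 TPM in HepG2 with NC-siRNA and 55.6 TPM in HepG2 with COP1-siRNA. Both Huh7 values were above both HepG2 values, by 4.81-fold with NC-siRNA and 3.55-fold with COP1-siRNA. Within a line the COP1-siRNA library was at 85.9% of the control in Huh7 and at 116% in HepG2. On the log2(TPM + 1) scale, used for all log2 values here, these changes were −0.22 and 0.21.

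KEAP1 (gene 9817, chromosome 19, 10486125 to 10503356, minus strand), the sensor that targets NRF2 for degradation, was at 57.0 and 50.7 TPM in Huh7 and at 55.4 and 54.4 TPM in HepG2, each time with NC-siRNA first. The 4 libraries thus lay close together, with log2 changes of −0.17 in Huh7 and −0.03 in HepG2. The factor thus differed between the lines and its inhibitor hardly did.

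NQO1 (gene 1728, chromosome 16, 69709401 to 69726560, minus strand) reduces quinones and is a standard readout of NRF2. Its Huh7 levels were 504 TPM (control) and 350.2 TPM (knockdown), and its HepG2 levels 102 and 111 TPM. Its gap between the lines was 4.96-fold with NC-siRNA, the largest of the members, and 3.15-fold with COP1-siRNA, where that of NFE2L2 was larger. In Huh7, 69.5% of the control level was left, a log2 change of −0.52, and in HepG2 the level was 109% of the control, a log2 change of 0.13.

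GCLC and GCLM encode the catalytic and modifier subunits of glutamate-cysteine ligase, which makes the rate-limiting step of glutathione synthesis. GCLC (gene 2729, chromosome 6, 53497341 to 53545101, minus strand) was at 27.3 and 25.5 TPM in Huh7 and at 26.6 and 27.2 TPM in HepG2. GCLM (gene 2730, chromosome 1, 93885199 to 93910370, minus strand) was at 50.8 and 40.4 TPM in Huh7 and at 22.3 and 23.3 TPM in HepG2. The subunits differed in pattern, since the catalytic one was level over the 4 libraries and the modifier one was 2.27-fold higher in Huh7 with NC-siRNA. The log2 changes of GCLM with COP1-siRNA were −0.32 in Huh7 and 0.06 in HepG2, and those of GCLC were −0.10 and 0.03.

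The thioredoxin system was represented by TXN, which reduces protein disulfides, TXNRD1, the selenoenzyme that recharges it from NADPH, and SRXN1, which repairs overoxidized peroxiredoxins. TXN (gene 7295, chromosome 9, 110243810 to 110256507, minus strand) was at 1039 and 1110.0 TPM in Huh7 and at 1031 and 983 TPM in HepG2. TXNRD1 (gene 7296, chromosome 12, 104215779 to 104350307, plus strand) was at 549.5 and 375 TPM in Huh7 and at 158 and 151 TPM in HepG2. The substrate was thus level across the libraries while its reductase was 3.47-fold higher in Huh7 with NC-siRNA. SRXN1 (gene 140809, chromosome 20, 646615 to 653200, minus strand) was at 149.9 and 133 TPM in Huh7 and at 57.7 and 67.1 TPM in HepG2, a gap of 2.60-fold with NC-siRNA and 1.99-fold with COP1-siRNA. TXNRD1 was at 68.3% of the control in Huh7 with COP1-siRNA, the lowest percentage among the members (log2 change −0.55), and at 95.1% in HepG2. RPL18AP3, a pseudogene on the same strand inside TXNRD1, had 53.9 and 43.3 TPM in the Huh7 libraries and 63.4 and 66.6 TPM in those of HepG2, and reads shared with TXNRD1 could be split either way. Summed with RPL18AP3, TXNRD1 had log2 changes of −0.53 and −0.03 with COP1-siRNA, and its difference between the lines was −1.44 with NC-siRNA in place of −1.79 and −0.94 with COP1-siRNA in place of −1.31, the last short of 2-fold.

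HMOX1 (gene 3162, chromosome 22, 35381096 to 35394207, plus strand), the inducible heme oxygenase, was at 97.1 and 104 TPM in Huh7 and at 70.7 and 78.7 TPM in HepG2. It was the only member with a higher TPM under COP1-siRNA in both lines, by 0.10 and 0.15 on the log2 scale. OSGIN1 (gene 29948, chromosome 16, 83953240 to 83966332, plus strand), a growth inhibitor induced by oxidized lipids, was at 28.5 and 28.4 TPM in Huh7 and at 7.49 and 11.8 TPM in HepG2. OSGIN1 with COP1-siRNA was at 99.6% of the control in Huh7 and at 157% in HepG2. The mean coverage of OSGIN1 in HepG2 was 18.7 reads per base with NC-siRNA and 36.7 with COP1-siRNA, the lowest coverages of any member in these libraries.

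The first comparison asked what COP1-siRNA did to these genes in Huh7. Of the 10 members, 8 had a lower TPM with COP1-siRNA, OSGIN1 by only −0.006, and 2 (HMOX1 and TXN) a higher one. Of the 13000 genes tested (TPM of at least 1 in either library), 49.9% had a higher TPM. The median log2 change was −0.17 over the members and −0.001 over the tested genes. None reached 2-fold, as did 1.08% of all tested genes. None reached 1.5-fold lower, as did 2.68% of tested genes, or 1.5-fold higher, as did 2.80%. TXNRD1 and NQO1 came nearest and lay at percentiles 3.15 and 3.68 of all tested changes, below the 5th percentile of −0.47, and GCLM lay at percentile 10.3. The other 7 members lay between percentiles 17.7 and 67.9. Mitochondrial genes took 13.8% of the TPM in this COP1-siRNA library against 11.4% in its control, and their part in these values was not tested. With FPKM and with median-of-ratios scaling 7 of 10 members were lower. With upper-quartile scaling, which moved the median of all genes to 0.12, 6 of 10 members were lower and the median of the members was −0.033.

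In HepG2 the same comparison gave small values, mostly of the other sign. There, 7 members had a higher TPM with COP1-siRNA and 3 (KEAP1, TXNRD1 and TXN) a lower one. Of 14456 tested genes, 48.3% had a higher TPM. The median was 0.09 over the members and −0.01 over the tested genes. None reached 2-fold, as did 0.934% of tested genes. OSGIN1 alone reached 1.5-fold higher (log2 change 0.59), as did 2.56% of tested genes, and lay at percentile 97.5. It fell short of 1.5-fold with FPKM in place of TPM, at 0.51, again with 1 added to each value. With nothing added, its log2 ratio was 0.65 by TPM and 0.63 by coverage divided by the depth measure above. None was 1.5-fold lower, as were 1.87% of tested genes. With upper-quartile scaling KEAP1, TXNRD1 and TXN had values from 0.015 to 0.061, so no member was lower. That scaling moved the median of all tested genes to 0.072, above these 3 values.

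**Figure D2:**
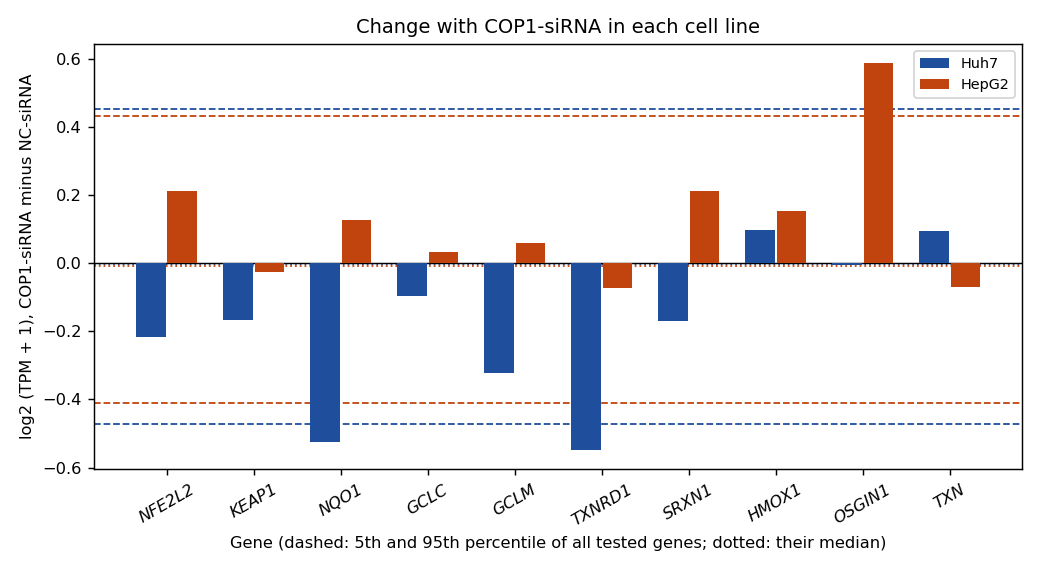
Bars give the change of each gene with COP1-siRNA as log2(TPM + 1), COP1-siRNA minus NC-siRNA, blue for Huh7 and orange for HepG2, 1 library per siRNA and line, with dashed lines at the 5th and 95th percentile of all tested genes of that line and dotted lines at their median. TXNRD1 and NQO1 in Huh7 and OSGIN1 in HepG2 lay outside the dashed lines.

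Set against each other, the lines gave 2 members lower in both (KEAP1 and TXNRD1), 1 higher in both (HMOX1) and 7 of opposite sign. The share of opposite signs over all genes was not computed, and some signs rest on small values. OSGIN1 in Huh7 (−0.006) changed sign under 3 alternatives, and GCLC in Huh7 (−0.096) and TXN in HepG2 (−0.069) each under 1. KEAP1 and TXNRD1 in HepG2 turned positive with upper-quartile scaling. The change in HepG2 was above that in Huh7 for 9 of 10 members, the exception being TXN, as it was for 51.1% of the 11970 genes tested in both lines. The median of this difference was 0.38 over the members and 0.01 over all genes. It was at least 1.5-fold for NQO1 (0.65) and OSGIN1 (0.59), 2 of 10 members, against 6.07% of all genes. TXNRD1 followed with 0.48 and NFE2L2 with 0.43. With FPKM 8 of 10 members had the higher change in HepG2 and none differed by 1.5-fold. The median difference was then 0.30 over the members and −0.06 over all genes. This difference uses all 4 libraries once each, and whether it exceeds the spread between repeated transfections cannot be told from 1 library per condition. COP1 also retained more of its mRNA in HepG2, and the part of that in the difference was not tested.

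**Figure D3:**
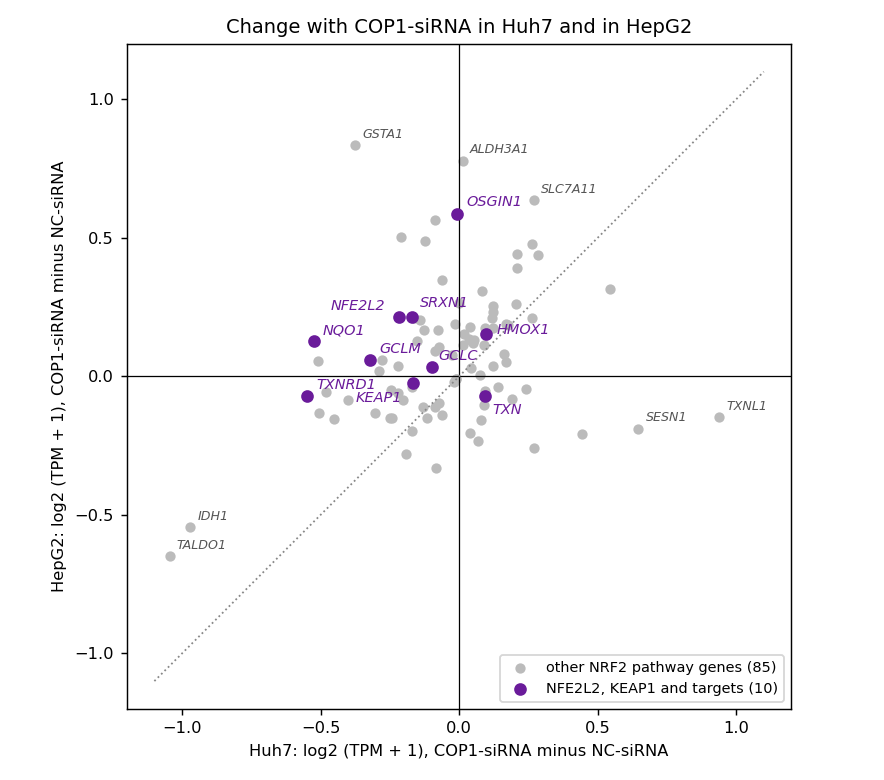
Each point is a gene, placed by its change with COP1-siRNA in Huh7 (x axis) and in HepG2 (y axis), both as log2(TPM + 1), COP1-siRNA minus NC-siRNA, with the 10 members in purple, the 85 other pathway genes in grey, tested or not, and equal change on the dotted line. Of the members, 9 lay above that line, and TALDO1 and IDH1 lay farthest into the corner of lower values in both lines.

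The comparison of the lines asked how far the pathway stood apart before knockdown. With NC-siRNA all 10 members had a lower TPM in HepG2 than in Huh7, and 6 of them by at least 2-fold, as had 14.7% of 15055 tested genes. The reverse, 2-fold higher in HepG2, held for none of the members and for 27.9% of tested genes. The median over the members was −1.26, against 0.37 over all tested genes, of which 63.0% had a higher TPM in HepG2. The 10 most abundant genes took 13.2% of the TPM in Huh7 against 8.02% in HepG2, and their part in this median was not tested. Relative to that median, the differences were −2.67 for NQO1, −2.61 for NFE2L2, −2.16 for both TXNRD1 and OSGIN1, −1.73 for SRXN1, −1.52 for GCLM and −0.82 for HMOX1. KEAP1, GCLC and TXN lay between −0.41 and −0.38 on this relative scale, and their unadjusted differences, −0.04 for KEAP1 and GCLC and −0.01 for TXN, turned positive with FPKM and with upper-quartile scaling.

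With COP1-siRNA, 8 members had a lower TPM in HepG2, and 4 of them (NFE2L2, NQO1, TXNRD1 and OSGIN1) by at least 2-fold, or 3 where TXNRD1 is summed with RPL18AP3 (−0.94), as had 14.0% of 15126 tested genes, while none of the members and 26.0% of tested genes were 2-fold higher. KEAP1 and GCLC, at 0.10 and 0.09, were lower in HepG2 with median-of-ratios scaling. SRXN1, at −0.98, and GCLM, at −0.77, were short of 2-fold, and both passed it with median-of-ratios scaling. The median over the members was −0.87 against 0.35 over all tested genes, of which 63.1% had a higher TPM in HepG2. In these bulk libraries, fewer cells that express a gene and less of its RNA per cell cannot be told apart. Each line comparison shares its libraries with the siRNA comparisons, so the narrower gap with COP1-siRNA is the same fact as the unequal changes in the lines.

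**Figure D4:**
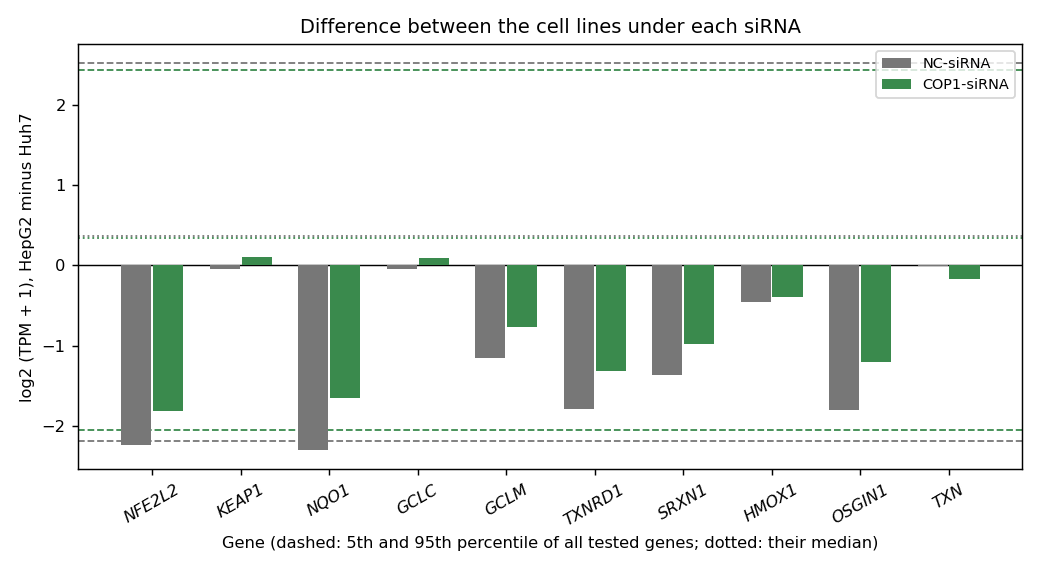
Bars give the difference between the lines for each gene as log2(TPM + 1), HepG2 minus Huh7, grey with NC-siRNA and green with COP1-siRNA, 1 library per bar end, with dashed lines at the 5th and 95th percentile of all tested genes and dotted lines at their median. NFE2L2 and NQO1 with NC-siRNA reached below the lower dashed line of −2.18, and KEAP1, GCLC and TXN were near 0.

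Around these genes, 85 others of the pathway were followed in 6 lists. With COP1-siRNA, 1 of the 83 tested in Huh7 reached 2-fold, TALDO1, and none of the 84 tested in HepG2. The 1.5-fold threshold was passed upwards by 2 and downwards by 2 in Huh7, and upwards by 3 and downwards by 1 in HepG2. Over all tested genes the shares were 2.80% upwards and 2.68% downwards in Huh7 and 2.56% and 1.87% in HepG2, so these counts are near the background. The medians were −0.01 in Huh7 and 0.05 in HepG2. The change in HepG2 was above that in Huh7 for 56 of the 82 tested in both lines, as it was for 51.1% of all 11970 genes. The median difference was 0.10, against 0.01 over all genes.

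The NADPH list held the only genes lower by 1.5-fold. TALDO1, an enzyme of the non-oxidative pentose phosphate pathway, fell from 546 to 264 TPM in Huh7 (log2 change −1.04), while its HepG2 levels were 283 and 180 TPM (−0.65). It was past 2-fold in Huh7 with TPM and short of it with FPKM (−0.98) or upper-quartile scaling (−0.91). IDH1, the cytosolic isocitrate dehydrogenase that yields NADPH, was named after its values were seen and had 799 and 407 TPM in the Huh7 libraries (−0.97) and 155 and 106 TPM in those of HepG2 (−0.55). Its HepG2 value was short of 1.5-fold. PGD, TKT, ME1, IDH2, NNT and MTHFD2, also of this list and in part named after their values were seen, had changes under 1.5-fold in both lines. In the 9 genes of this list the median change was −0.25 in Huh7 and −0.08 in HepG2.

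The genes higher by 1.5-fold were all named after their values were seen. In Huh7 they were TXNL1, a thioredoxin-like protein, from 31.4 to 61.0 TPM (0.94), and SESN1, a sestrin, from 3.68 to 6.33 TPM (0.65). The depth-scaled coverage of TXNL1 changed by only 0.08 on the log2 scale, whereas that of SESN1 changed by 0.68, so the TPM of TXNL1 moved without a like change in the amount of its sequence. The SESN1 change rests on a low mean coverage, 0.528 and 0.958 reads per base in the Huh7 libraries. In HepG2 they were GSTA1, a glutathione transferase, from 56.9 to 102 TPM (0.84), SLC7A11, the cystine importer, from 9.61 to 15.5 TPM (0.64, and 0.27 in Huh7), and ALDH3A1, an aldehyde dehydrogenase, from 2.57 to 5.13 TPM (0.78). GSTA1 and the AKR1C genes have near-identical relatives, and the division of reads among those is uncertain. The NRF2 regulators had no gene past 1.5-fold in either line, with medians of −0.09 in Huh7 and 0.13 in HepG2, nor had the heme and iron list, with medians of 0.10 and 0.14. Among the regulators, and named after their values were seen, BACH1, the repressor that competes with NRF2, had values of −0.14 and 0.21, and CUL3, the ligase scaffold, of −0.22 and 0.04, each time in Huh7 and then in HepG2. The small MAF partners of NRF2 had mixed values, MAFG 0.12 and 0.23, MAFF −0.08 and −0.33, and MAFK −0.30 and −0.13.

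**Figure D5:**
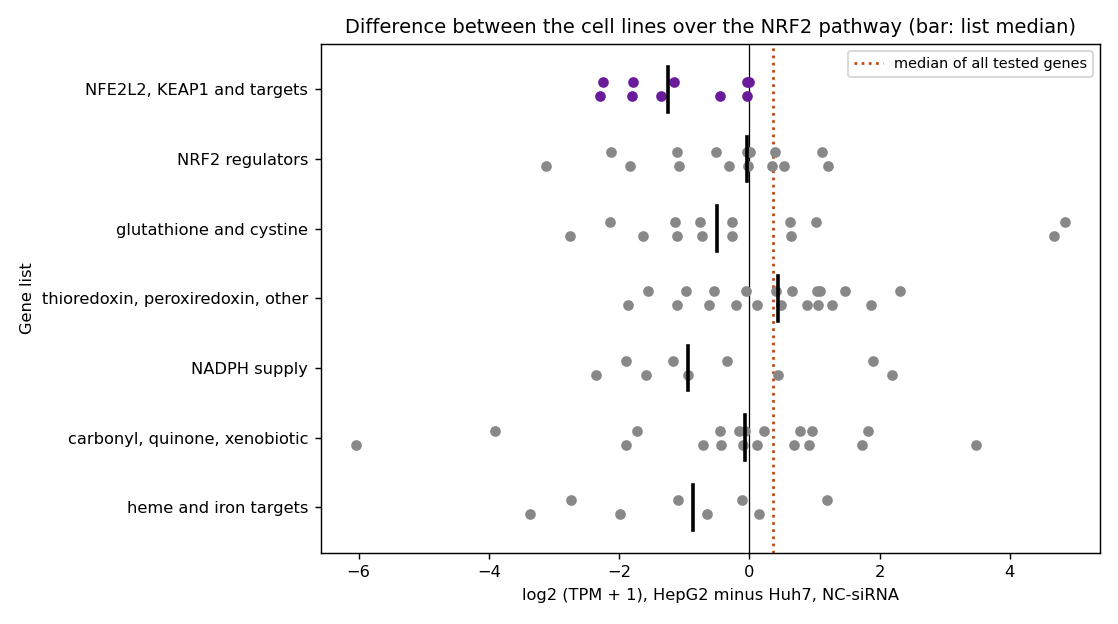
Each point is a gene, placed by its difference between the lines as log2(TPM + 1), HepG2 minus Huh7, both with NC-siRNA, 1 row per list, with a black bar at the list median and a dotted line at the median of all tested genes, 0.37. The median of the 10 members, −1.26, lay farthest to the left.

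Between the lines with NC-siRNA, 25 of the 85 other genes were 2-fold lower in HepG2 and 18 were 2-fold higher, with a median of −0.11. Over all tested genes 14.7% were lower, 27.9% were higher and the median was 0.37. The heme and iron list had a median of −0.87, with 4 of 8 genes 2-fold lower in HepG2. The ferritin subunits led it, FTL at 25470 TPM in Huh7 against 3831 TPM in HepG2 and FTH1 at 12344 against 1196 TPM, together 3.78% and 0.503% of all TPM. HMOX2, the constitutive heme oxygenase, went the other way, from 31.4 to 73.1 TPM, and FECH was level at 14.1 and 15.7 TPM. The NADPH list had a median of −0.95, with IDH1 (−2.36) and ME1 (−1.90) lowest in HepG2 and MTHFD2 (2.19) and TKT (1.90) highest.

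The other lists held genes on both sides, to be read against the same shares over all genes. In HepG2, 2 of 15 regulators were 2-fold higher and 5 lower (median −0.03), 3 of 14 glutathione genes higher and 5 lower (median −0.50), 7 of 20 thioredoxin, peroxiredoxin and related genes higher and 3 lower (median 0.45), and 3 of 19 carbonyl and xenobiotic genes higher and 4 lower (median −0.07). Among the NRF2 regulators, DPP3, a peptidase that binds KEAP1, was at 319.8 TPM in Huh7 and 35.7 TPM in HepG2, and SQSTM1, the autophagy receptor p62 that also binds KEAP1, at 844 and 194 TPM. RBX1, at 63.7 and 139 TPM, and BTRC, at 6.70 and 16.9 TPM, were the highest in HepG2 relative to Huh7. Both belong to ubiquitin ligases that act on NRF2. In the glutathione list, MGST1 (1052 and 154 TPM) and GPX3 (235 and 52.7 TPM) were higher in Huh7, and GPX2 (4.10 and 146 TPM) and GSTA1 (1.25 and 56.9 TPM) in HepG2. SOD2, the mitochondrial superoxide dismutase, and the glutaredoxin GLRX were lower in HepG2 by 1.87 and 1.55, and MSRA and SESN1 higher by 1.86 and 2.32. The last 2 rest on low mean coverage with NC-siRNA. It was 0.044 reads per base in Huh7 and 0.240 in HepG2 for MSRA, and 0.528 and 1.93 for SESN1. In the carbonyl and xenobiotic list, PTGR1 was at 578 TPM in Huh7 and 7.83 TPM in HepG2 and AKR1C2 at 718 and 47.2 TPM, while CBR3 (0.329 and 13.8 TPM) and AKR1B10 (14.3 and 53.2 TPM) were higher in HepG2. NQO1, PTGR1 and AKR1C2 are all textbook NRF2 targets, as is AKR1B10, and the last was higher in HepG2. With NC-siRNA, 18 of the 85 other pathway genes were 2-fold higher in HepG2, AKR1B10, GPX2, CBR3 and TKT among them, and 25 were 2-fold lower.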

How the data were processed

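For each library the authors deposited coverage, FPKM and TPM per gene. The TPM that the authors deposited sum to 1e+06 per library, the deposited FPKM are within a library proportional to them, and the deposited coverage signal (mean reads per base) is not scaled for depth. Per the labels, libraries were stranded and polyadenylated. The submitters' processing notes name FastQC 0.11.7, Trimmomatic 0.38, HISAT2 2.1.0, StringTie 2.1.3b, edgeR and GRCh38, without settings. Read counts are unknown, so counting error could not be computed. Genes carry NCBI Gene numbers, and 96.3% of 46427 matched RefSeq symbols. The 49 to 51 numbers on several lines per table were summed. Changes were log2((TPM + 1)/(TPM + 1)), and the genes tested (1 TPM or more in either library compared) were held against 2-fold, the threshold of the study, and 1.5-fold. Percentiles are ranks among all tested genes. Named genes were the 10 members, COP1, list genes past 2-fold with COP1-siRNA, and the 2 highest and 2 lowest of each list between the lines. Any other list gene was named after its values were seen. Members and lists were chosen with earlier results of these data known. The computation was tested on simulated data. Python 3.11.15, numpy 2.4.6, pandas 2.3.3 and matplotlib 3.10.9 were used. Alternatives were a pseudocount of 0.1, FPKM, coverage, median-of-ratios and upper-quartile scaling, no minimum TPM, a minimum of 5 and the 1.5-fold threshold.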

Additional observations from a re-analysis of the deposited data

Results flagged for a closer look

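Genes whose change with COP1-siRNA had opposite signs in the lines, by at least 0.1 on the log2 scale in each, were set apart, with 1 library per condition and no test of the difference. Among the members these were NQO1 (−0.52 in Huh7 and 0.13 in HepG2, a difference of 0.65), NFE2L2 (−0.22 and 0.21, a difference of 0.43) and SRXN1 (−0.17 and 0.21, a difference of 0.38). Their signs were the same with the smaller pseudocount, FPKM, coverage and both scalings, but with upper-quartile scaling NFE2L2 (−0.082) and SRXN1 (−0.033) were under 0.1 in Huh7. Among the other pathway genes that passed 1.5-fold in a line these were GSTA1 (−0.38 and 0.84, a difference of 1.21, at 1.25 TPM in the Huh7 control), TXNL1 (0.94 and −0.15, a difference of −1.09) and SESN1 (0.65 and −0.19, a difference of −0.84). By depth-scaled coverage TXNL1 had 0.08 and −0.11 and SESN1 0.68 and −0.095, so each was under 0.1 in a line. The mean coverage of SESN1 in Huh7 was only 0.528 and 0.958 reads per base.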

How the results depend on the processing

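With 1 library per condition no library could be left out and depth sets an unknown limit on each value. The labels number no replicates to pair, and a fit with the cell lines as pairs was not run. Of the 20 member changes with COP1-siRNA, 15 kept their sign under all 5 alternatives tried for single genes, and no member past 2-fold between the lines reversed. Both scalings divide every gene of a library by the same factor. FPKM, proportional to TPM within a library, also differs from it by 1 factor per library, with the same pseudocount of 1 added. With FPKM the median of all tested genes moved too, to 0.047 in Huh7 and −0.022 in HepG2 with COP1-siRNA. How much the factor and the pseudocount each add to the shifts was not tested. With upper-quartile scaling the median in Huh7 moved from −0.17 to −0.033 for the members and from −0.001 to 0.12 for all tested genes. With median-of-ratios scaling the member median between the lines became −1.51 (NC-siRNA) and −1.12 (COP1-siRNA). That of all tested genes moved from 0.37 to 0.14 with NC-siRNA and from 0.35 to 0.13 with COP1-siRNA. With FPKM the member median between the lines became −1.13 (NC-siRNA). At 1.5-fold in place of 2-fold, the members past the threshold in HepG2 numbered 1, and the other pathway genes 4 in each line. With FPKM the count of other pathway genes past 2-fold in Huh7 became 0.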
